A study of Mus musculus with 18 samples.

Results

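The cerebral cortex around the infarct 3 days after middle cerebral artery occlusion (MCAO) was compared with the cortex of sham-operated mice, on arrays that measure N6-methyladenosine (m6A) on circular RNAs. The members are the samples titled 3d after MCAO and sham. These are 12 of the 18 samples of the series, or 6 of its 9 arrays, because the immunoprecipitated and the unbound RNA of a sample share an array. Each group had 3 samples. The animals of both groups were C57BL/6J mice labeled 10 weeks old. The 3d mice had a permanent infarct made by electrocoagulation of the distal middle cerebral artery, after which both common carotid arteries were occluded briefly. The paper describes the sham mice as operated in the same way except for the MCAO. The labels give this group as sham, without a day of sampling. The replicates are labeled as biological, but the sources used here do not say whether a sample came from a single mouse, so P values measure the spread between samples. The limma fits were made on all 9 arrays unless stated otherwise, so for them this spread includes that of the 7d arrays. Of the 14236 circRNA probes of the array, 11893 stood well above background in IP and Sup alike on 3 or more of these 6 arrays, and these were compared.

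m6A is a methyl mark on adenosine that is written by the METTL3 and METTL14 complex, removed by FTO and ALKBH5, and bound by reader proteins such as those of the YTH family. CircRNAs are closed loops made mostly by back-splicing of exons. They lack free ends, resist exonucleases and are abundant in the brain, where many come from genes of the synapse. In this assay an anti-m6A antibody pulls down the modified molecules (IP) and leaves the others in the supernatant (Sup). Linear RNA was digested with RNase R before labeling. The IP was labeled with Cy5 and the Sup with Cy3. The m6A level of a circRNA is the share of IP in the sum of IP and Sup, given in percent, and the sum itself is its expression. A higher level is called hypermethylation and a lower level hypomethylation.

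The same comparison was read in 2 ways. The scanner values start from the pixel intensities, corrected for background with normexp in limma and an offset of 50. The deposited values are the log2 table of the authors, which lists 11821 of the compared probes. Both are scaled on the same 10 of the 102 spike-in probes, which detect control RNA added to every sample. The offset draws the levels of dim probes toward each other. When level shifts were injected on the sham arrays, a log2 change of 1 was estimated at a median of 0.41 with it. At an offset of 0 the median was 1.00. The median circRNA intensity was 2.23 to 2.43 times the local background in the IP channel and 3.31 to 4.65 times in the Sup channel, and no circRNA spot was saturated. The number of arrays limits the precision. The 3d arrays lay on slide 1 and the sham arrays on slide 2, so slide and group cannot be told apart in any result given here. Names could be given to 55 circRNA probes. None of them comes from a defining marker gene of neurons, glia or endothelium, and the labeled tissue could not be checked against such markers.

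The median m6A level of an array was slightly lower in the 3d group by the scanner values. It was 32.7%, 32.6% and 32.7% for the 3d arrays and 34.0%, 33.8% and 33.2% on the sham arrays. The groups did not overlap, and the difference was -0.987 percentage points (exact permutation p = 0.1, two-sided, and no smaller p is possible with 3 arrays against 3). By the deposited table the median level was 28.4%, 30.5% and 24.1% on the 3d arrays and 39.3%, 36.8% and 30.4% on the sham arrays. The difference was -7.85 percentage points, with sham replicate 3 just below 3d replicate 2 (exact permutation p = 0.2, unpaired). Set against the sham array of the same replicate number, the 3d array was lower for all 3 numbers in the deposited table, although the labels give no pairing. In the scanner values any matching of arrays gives this, since the groups do not overlap. CircRNAs with a level above 50% made up 1.02 to 6.41% of those on a 3d array and 11.3 to 24.5% of those on a sham array in the deposited table. The direction depends on the scaling. With all 102 spike-in probes in place of the 10, the 3d median was 47.0% ± 0.61 (SD, n = 3) and the sham median 44.0% ± 0.475, and without background correction the 3d arrays were higher by 1.24 points.

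**Figure D1:**
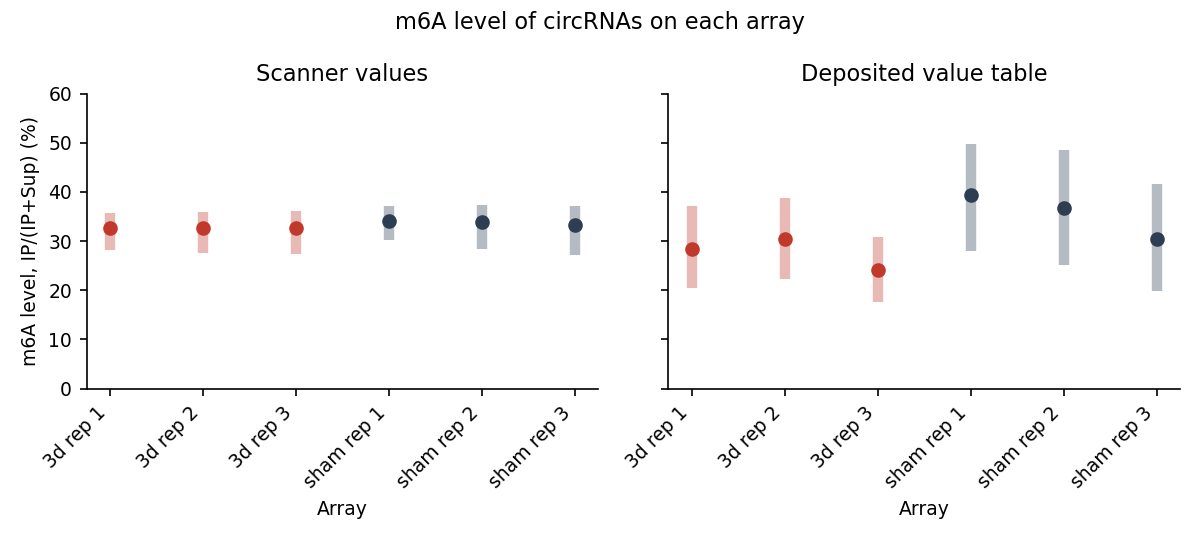
Median m6A level (points) and the range from the lower to the upper quartile over circRNAs (bars) on each of the 6 arrays, in percent of IP plus Sup, for the scanner values (left) and the deposited table (right). The 3d medians lie within 32.6 to 32.7% and the sham medians within 33.2 to 34.0% on the left, and sham replicate 3, at 30.4%, falls among the 3d arrays on the right.

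The channels behind these medians differed between the readings. The median Sup signal of the deposited table was higher in the 3d group by 0.478 on the log2 scale, with no overlap between the groups (exact permutation p = 0.1), while the median IP signal differed by 0.041 (p = 1.0). By the scanner values the medians of both channels were higher in the 3d group, by 0.194 for IP and 0.171 for Sup. The 10 spike-in probes used for scaling have equal channel means by construction, and IP over Sup of single ones differed between the groups by -0.4 to 0.42 on the log2 scale. Among the other 92, the median difference was -0.17 and 8 were higher in the 3d group.

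At the thresholds of the methods, a fold change above 1.5 with an unadjusted P below 0.05 in limma, more circRNAs were hypomethylated than hypermethylated in the 3d group in both readings, and fewer with all spike-in probes, with loess, with an offset of 0 or without background correction. By the scanner values there were also fewer without 3d replicate 3 or without sham replicate 1. By the scanner values 53 circRNAs were hypermethylated (0.446% of those tested) and 188 were hypomethylated (1.58%). After Benjamini-Hochberg adjustment 26 (0.219%) and 81 (0.681%) of them remained. These adjusted calls were not firm. They numbered 42 and 138 with the replicate number of the titles as a block, 12 and 34 in limma on the 6 arrays alone, where 3358 circRNAs had an unadjusted P below 0.05, and 1 and 0 after centering of each array. Without 3d replicate 1, 2 or 3 or sham replicate 2, limma left none in either direction, with 1964 to 2264 circRNAs at an unadjusted P below 0.05. Leaving out sham replicate 1 gave 84 and 6, and leaving out sham replicate 3 gave 12 and 250. The hypermethylated circRNAs had a median level of 19.2% in sham and 31.8% in 3d samples, and the hypomethylated ones had 40.6% and 24.8%. The 3 arrays of each group lay apart for 34 of the 53 and for 133 of the 188, against 9.94% and 23.4% of all tested circRNAs in those directions. By the deposited values, 160 were hypermethylated (1.35%) and 2047 hypomethylated (17.3%), with a median log2 change of -0.328 over all tested circRNAs, against -0.03 in the scanner values. Of these, 102 (0.863%) and 1732 (14.7%) passed the adjustment. In limma on the 6 arrays alone none passed it in either direction, with 4400 circRNAs at an unadjusted P below 0.05, and none did so without sham replicate 2, with 3740. The methods' t-test left 0 and 76, and with the replicate number as a block 147 and 1966 passed. Leaving out 3d replicate 1, 2 or 3 gave 36, 52 and 89 hypermethylated and 916, 2293 and 760 hypomethylated circRNAs. Leaving out sham replicate 1 or 3 gave 158 and 76 hypermethylated and 754 and 3019 hypomethylated circRNAs.

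The 2 readings shared 45 hypermethylated circRNAs (0.381%), which is 84.9% of those from the scanner values and 28.1% of those from the deposited table. They shared 81 hypomethylated circRNAs (0.685%), which is 43.1% and 3.96%. None was called in opposite directions. Which direction had more calls turned with the scaling. Hypomethylation made up 78.0% of the calls by the scanner values, 92.8% in the deposited table, and 65.3% after centering of each array on its median circRNA. It made up 16.0% with all spike-in probes, where the median log2 change over circRNAs was 0.104, and 1.36% with within-array loess. Centering the arrays of the deposited table brought it to 13.9%. Single arrays also weighed on the counts. Without sham replicate 1 there were 159 hypermethylated and 104 hypomethylated circRNAs. Without 3d replicate 3 there were 74 hypermethylated and 32 hypomethylated circRNAs. Leaving out either of these arrays thus also turned which direction had more calls by the scanner values. Without sham replicate 3 the hypomethylated circRNAs numbered 394. The hypermethylated circRNAs of the deposited table numbered 101 without 3d replicate 2, 291 without 3d replicate 3, 416 without sham replicate 1 and 105 without sham replicate 3, and the hypomethylated 1291 without 3d replicate 3 and 3337 without sham replicate 3.

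**Figure D2:**
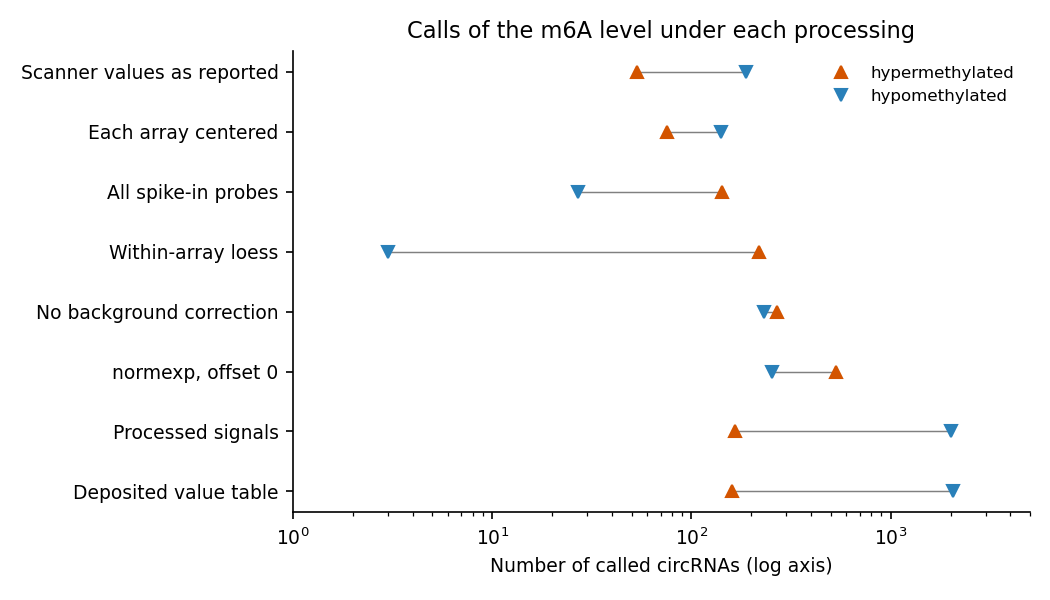
Number of hypermethylated (upward triangles) and hypomethylated (downward triangles) circRNAs, 3d vs. sham, under 8 ways of computing the level, on a log axis. Hypermethylated circRNAs range from 53 to 530 and hypomethylated circRNAs from 3 to 2047, and which symbol lies further right changes with the scaling.

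The calls of single circRNAs were followed through the 8 ways of computing the level shown in the plot of calls by processing. Of the 53 hypermethylated, 38 were called in all 8, and all 53 kept their sign. Of the 188 hypomethylated, 168 kept their sign and 62 were called in at least 6 of the 8, but only 2 were called in all 8. These 2 come from Bmp2k and Srebf2. The counts cannot be set against each other, since loess left 3 hypomethylated circRNAs in all while no setting gave fewer hypermethylated ones than the 53.

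The study lists 10 hypermethylated and 10 hypomethylated circRNAs for 3d vs. sham. They were chosen from these same samples, so they are no independent evidence of a direction. Of the 10 listed as hypermethylated, 6 were called by the scanner values and 10 in the deposited table, among them Appl1, whose IP stood well above background on none of the sham arrays. Of the 10 listed as hypomethylated, 9 could be tested, of which 2 were called by the scanner values and 9 in the deposited table.

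Among the listed hypermethylated circRNAs, 3 come from non-coding RNA. The largest rise by the scanner values was in mmu_circRNA_009696, an intronic circRNA of Malat1, a long non-coding RNA of nuclear speckles, on chromosome 19. Its level was 76.6%, 64.8% and 58.6% on the 3d arrays and 47.2%, 28.6% and 21.2% on the sham arrays. The groups did not overlap, although the sham arrays spread widely, and the mean rose from 32.4% ± 13.4 to 66.7% ± 9.14 (SD, n = 3). The log2 change was 1.11 ± 0.27 (SE, adjusted P = 0.0319). IP was higher by 1.71 and Sup lower by 0.45, and it was called in all 8 settings. In the deposited table its log2 change was 1.46 ± 0.29, after that of Appl1 at 1.54 ± 0.26. Its expression changed by 0.59 ± 0.25 on the log2 scale by the scanner values, with overlapping arrays. This passed the thresholds of the methods but not the adjustment (adjusted P = 0.799), was called in 1 of 8 settings, and was not called in the deposited table, at 0.48 ± 0.34. The circRNA of DQ715306 had levels of 15.8%, 12.4% and 13.4% against 10.6%, 7.57% and 7.44% on the sham arrays, with a log2 change of 0.71 ± 0.15 (adjusted P = 0.0247). The circRNA of Rn45s, the 45S precursor of ribosomal RNA, had levels of 12.9%, 11.1% and 12.9% against 11.1%, 8.15% and 8.56%. Rn45s is a repeated gene, so this probe cannot be tied to a single copy. The lowest 3d array and the highest sham array were equal at this rounding, and its log2 change of 0.42 ± 0.12 was below the fold threshold by the scanner values, with 1.07 ± 0.23 in the deposited table.

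Another 4 of the listed hypermethylated circRNAs come from genes of the synapse, and all 4 were called in every one of the 8 settings. Anks1b encodes a scaffold of the postsynaptic density. The level of its circRNA, mmu_circRNA_017958, was 30.5%, 28.2% and 18.5% on the 3d arrays and 17.9%, 9.74% and 9.56% on the sham arrays. The lowest 3d array was just above the highest sham array, and the log2 change was 1.09 ± 0.25 (adjusted P = 0.0295). Arhgap32 encodes a GTPase-activating protein of the postsynapse. Its circRNA had levels of 17.8%, 16.0% and 19.2% against 8.44%, 8.36% and 12.6%, a log2 change of 0.87 ± 0.18 (adjusted P = 0.0235). This rise came with a fall of Sup by 0.88 and an IP change of 0.12, and the circRNA was also called down-regulated, by 0.75 on the log2 scale. The expression call was made in all 8 settings, but the arrays overlapped and it did not pass the adjustment (adjusted P = 0.506). Rims1 encodes a scaffold of the presynaptic active zone. Its circRNA had levels of 14.5%, 11.5% and 11.5% against 9.79%, 6.9% and 5.83%, a log2 change of 0.76 ± 0.17 (adjusted P = 0.0269), with Sup lower by 0.59 and IP higher by 0.25. Calm3 encodes the calcium sensor calmodulin. Its circRNA had levels of 19.4%, 17.8% and 18.8% against 15.1%, 8.16% and 12.2%, a log2 change of 0.70 ± 0.2 that did not pass the adjustment (adjusted P = 0.0552). The Calm3 call was lost without sham replicate 2, at a log2 change of 0.46, and by the methods' t-test.

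The other 3 listed as hypermethylated had smaller scanner changes. Clasp1 encodes a protein of growing microtubule ends. Its circRNA had levels of 35.6%, 34.2% and 35.3% on the 3d arrays and 27.4%, 29.1% and 28.3% on the sham arrays, which is a clear gap on each array but a log2 change of 0.31 ± 0.1 (adjusted P = 0.0936). Its deposited levels were 38.5%, 35.8% and 31.3% against 19.2%, 17.9% and 17.5%, a log2 change of 0.95 ± 0.16. The circRNA of Cmss1, a gene tied to the small ribosomal subunit, had overlapping groups, with 19.5%, 16.2% and 17.5% against 18.8%, 11.9% and 10.5%. Appl1 encodes an adaptor of early endosomes. The IP signal of its circRNA, mmu_circRNA_27268, was well above background on 3 of 3 3d arrays and on none of the sham arrays. The size of its change is therefore uncertain. After within-array loess and Aquantile normalization, the log2 IP signal was 6.2 for 3d arrays against 6.08 for sham arrays, 1.08-fold higher. The sham value rests on signals not well above background, so the 1.08-fold is no lower bound, and it is open to dye bias.

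**Figure D3:**
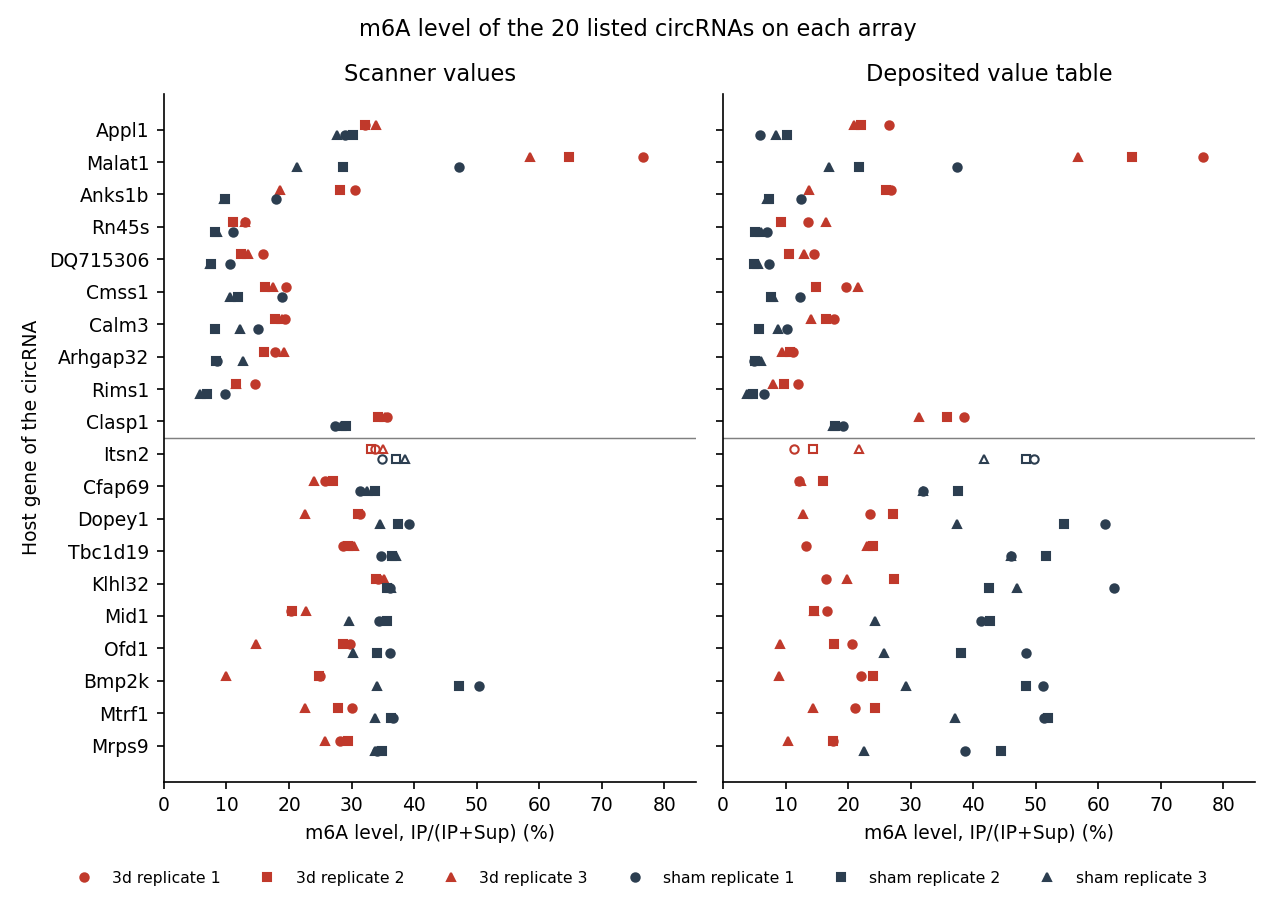
m6A level in percent of IP plus Sup of the 20 listed circRNAs, one row per host gene, on each 3d array (red) and sham array (dark), with a marker for each replicate number, for the scanner values (left) and the deposited table (right). Rows above the line are listed as hypermethylated and rows below as hypomethylated, and open markers show Itsn2, which was not tested. Malat1 lies at 58.6 to 76.6% in the 3d group against 21.2 to 47.2% in the sham group, and most rows below the line are closer together on the left than on the right.

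Among the listed hypomethylated circRNAs, Bmp2k and Mid1 were called by the scanner values. Bmp2k encodes a kinase of clathrin-mediated endocytosis. The level of its circRNA, mmu_circRNA_39011, was 25.0%, 24.8% and 10.0% on the 3d arrays and 50.3%, 47.1% and 34.0% on the sham arrays. The groups did not overlap, and replicate 3 was the lowest in each. The log2 change was -1.23 ± 0.32 (adjusted P = 0.042), in which Sup was higher by 1.67 and IP differed by -0.08. The Bmp2k call was lost by the methods' t-test. Mid1 encodes a ubiquitin ligase that binds microtubules. Its circRNA had levels of 20.3%, 20.4% and 22.7% against 34.4%, 35.6% and 29.6%, a log2 change of -0.65 ± 0.19 (adjusted P = 0.0633). Both channels were higher in the 3d group, IP by 0.67 and Sup by 1.56, and expression rose by 1.32 ± 0.24 (adjusted P = 0.0217). The Mid1 call in the level was lost with all spike-in probes, with loess and with an offset of 0.

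The other 7 tested hypomethylated circRNAs of the list had lower levels in the 3d group on each array but stayed under the fold threshold by the scanner values. Cfap69 and Ofd1 belong to cilia and their base. The circRNA of Cfap69 had levels of 25.7%, 27.1% and 24.0% against 31.3%, 33.8% and 32.4% (log2 change -0.35 ± 0.093, adjusted P = 0.0484). That of Ofd1 had 29.8%, 28.6% and 14.8% against 36.1%, 34.1% and 30.3%, where 3d replicate 3 is far below the rest. Dopey1 and Tbc1d19 have roles in membrane traffic. Their circRNAs changed by -0.40 ± 0.13 and -0.29 ± 0.078 on the log2 scale. Mtrf1 and Mrps9 encode a release factor and a ribosomal protein of mitochondria, and their circRNAs changed by -0.42 ± 0.11 and -0.30 ± 0.091. Klhl32, of the kelch-like family, had the smallest difference, with 34.3%, 33.9% and 35.2% against 36.2%, 35.6% and 36.3%. Its IP signal was well above background on 1 of the 3d arrays. By the deposited values all 7 changed by -1.21 to -1.33, each with an adjusted P below 0.05. The circRNA of Itsn2, an endocytic scaffold, did not pass the filter. Its IP was well above background on none of the 3d arrays, and its Sup on only 2 of the sham arrays.

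Most of the largest changes were in circRNAs without a name. Of the 6 largest increases in level with separate arrays, 3 come from Malat1, Anks1b and Arhgap32. The probe ASCRP4013632 had levels of 50.7%, 41.3% and 27.5% against 26.3%, 22.1% and 14.5% (log2 change 0.92 ± 0.25, adjusted P = 0.048), a call that was lost by the methods' t-test. The probe ASCRP4011539 had 41.2%, 32.4% and 24.7% against 23.3%, 16.9% and 14.0% (0.86 ± 0.21, adjusted P = 0.0325). In these 2 probes replicate 1 was the highest and replicate 3 the lowest of each group. Of the 6 largest decreases, Bmp2k was the only named member. The probe ASCRP4004537 had levels of 24.2%, 26.6% and 11.4% against 51.4%, 50.5% and 40.4% (-1.28 ± 0.28, adjusted P = 0.0255). The probe ASCRP4004683 had 16.3%, 17.7% and 10.5% against 42.3%, 35.8% and 23.3% (-1.18 ± 0.26, adjusted P = 0.0257). Replicate 3 was again the lowest of its group in both, and both calls were lost with loess. All 6 decreases had higher Sup in the 3d group, by 1.29 to 1.92, and IP changes of -0.26 to 0.09. With adjusted P below 0.05 in both readings, which rests on the 9-array fit, 20 circRNAs were hypermethylated (0.169%) and 29 hypomethylated (0.245%). Malat1, Anks1b and Arhgap32 were among the 4 highest of the first, and Bmp2k among the 4 lowest of the second.

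In most of the called circRNAs, IP and Sup moved in opposite directions. Of the 53 hypermethylated, 47 had higher IP and lower Sup in the 3d group, with median log2 changes of 0.72 for IP and -0.29 for Sup. Of the 188 hypomethylated, 185 had higher Sup, at a median of 0.85, and 128 of them had lower IP, at a median of -0.24 over the group. The medians over all tested circRNAs were 0.16 and 0.19. By the deposited values, 108 of the 160 hypermethylated had higher IP with lower Sup, and 1656 of the 2047 hypomethylated had lower IP with higher Sup. The level is computed from these channels, so this is a description of the calls and no separate test.

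**Figure D4:**
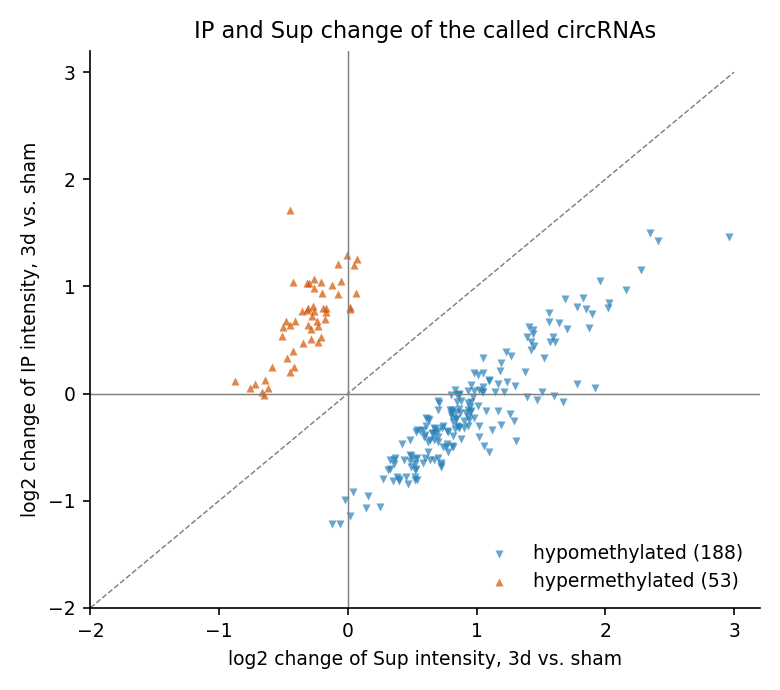
Log2 change of the IP intensity against the log2 change of the Sup intensity, 3d vs. sham, for the 53 hypermethylated and 188 hypomethylated circRNAs of the scanner values, one point each. The dashed line marks equal change. Hypermethylated circRNAs lie mostly at higher IP and lower Sup (47 of 53), and hypomethylated circRNAs at higher Sup (185 of 188).

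The arrays with the same replicate number moved together in the called circRNAs. The median level of the hypomethylated circRNAs was 26.9%, 28.8% and 16.6% on 3d replicates 1 to 3, and 45.8%, 42.9% and 34.0% on sham replicates 1 to 3. Of the 181 with a value on every array of the group, 177 had their lowest 3d level on replicate 3 (97.8%) and 174 their lowest sham level on replicate 3 (96.1%). Over all tested circRNAs these shares were 36.9% and 44.8%. The hypermethylated circRNAs also had their lowest median on replicate 3, with medians of 34.3%, 33.1% and 26.5% on the 3d arrays and 24.6%, 18.1% and 14.5% on the sham arrays. The highest 3d median was on replicate 1 for these and on replicate 2 for the hypomethylated. For 44 of the 53 sham replicate 3 was the lowest sham array, and for 49 sham replicate 1 was the highest. By the deposited values, replicate 3 was the lowest of its group for 72.2% (3d) and 73.4% (sham) of all tested circRNAs. The labels do not say what a replicate number shares between the groups.

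**Figure D5:**
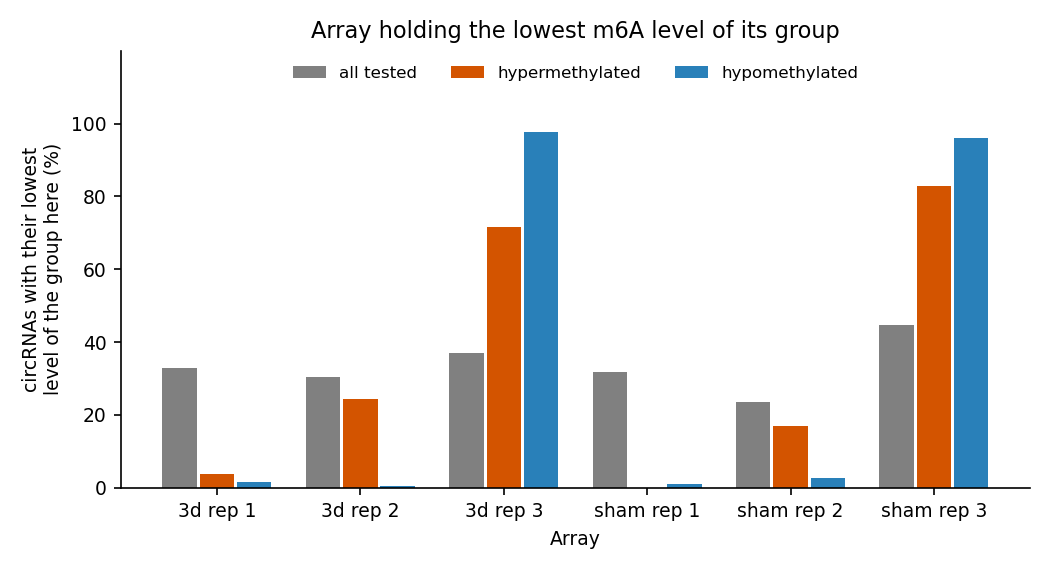
Share of circRNAs, in percent, whose lowest m6A level of a group falls on each array, by the scanner values, for all tested, hypermethylated and hypomethylated circRNAs. For hypomethylated circRNAs replicate 3 holds the lowest level in 97.8% (3d) and 96.1% (sham), against 36.9% and 44.8% of all tested circRNAs.

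The calls by the scanner values fell on bright probes. When the tested probes were divided into 4 equal parts by mean expression, the brightest part held 47 hypermethylated circRNAs of 53 and 186 hypomethylated circRNAs of 188, and the 2 dimmest held none. With the offset of 50 an injected log2 change of 1 was estimated at a median of 0.41, below the fold threshold. Missing calls in dim probes therefore do not show unchanged levels. Every hypermethylated and hypomethylated circRNA was well above background in the IP channel on all 6 arrays, against 84.4% of all tested. The deposited table has no offset, and its hypomethylated circRNAs were spread over the same parts as 604, 623, 578 and 242 from dim to bright. The hypermethylated were spread as 10, 22, 22 and 106.

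More circRNAs were up-regulated than down-regulated in the 3d group in both readings, and fewer after centering of each array on its median circRNA. By the scanner values 290 circRNAs were up-regulated (2.44%) and 31 down-regulated (0.261%), of which 18 (0.151%) and 1 (0.00841%) passed the adjustment. With the replicate number as a block 5 and 0 passed it, from 272 and 28 called at the unadjusted P. In limma on the 6 arrays alone none passed it, with 4549 circRNAs at an unadjusted P below 0.05, and the up-regulated passing it numbered 112 without 3d replicate 2, 1 without 3d replicate 3, 3 without sham replicate 1 and 128 without sham replicate 3. The median log2 expression of an array was 7.78, 7.73 and 7.66 on 3d arrays and 7.56, 7.53 and 7.58 on sham arrays, a difference of 0.168 without overlap (exact permutation p = 0.1). In this bulk tissue fewer cells of a type and less RNA per cell cannot be told apart. By the deposited values, 2498 were up-regulated (21.1%) and 88 down-regulated (0.744%), of which 1618 (13.7%) and 51 (0.431%) passed the adjustment. Those that passed numbered 488 and 14 in limma on the 6 arrays alone, 6 and 2 by the methods' t-test, 938 and 23 without 3d replicate 1, 215 and 58 without 3d replicate 3, 2551 and 48 without sham replicate 3, and none without 3d replicate 2, sham replicate 1 or sham replicate 2, where 2900 to 3340 circRNAs had an unadjusted P below 0.05. In the deposited table with the replicate number as a block, 1758 and 51 passed the adjustment. The readings shared 183 up-regulated (1.55%) and 24 down-regulated (0.203%) circRNAs. In the 4 parts by mean expression, the up-regulated of the deposited table were spread as 1263, 693, 361 and 181 from dim to bright. Those of the scanner values were spread as 0, 3, 49 and 238. Of the 2498 in the deposited table, 70.6% were well above background in IP on all 6 arrays, against 84.9% of all tested. Centering each array on its median circRNA left 55 up-regulated and 82 down-regulated by the scanner values, and 573 and 647 in the deposited table. The median circRNA was shifted by 0.172 in the scanner values and 0.314 in the deposited table before centering. By the scanner values, the up-regulated numbered 464 without 3d replicate 2, 182 without 3d replicate 3, 177 without sham replicate 1 and 576 without sham replicate 3. The down-regulated numbered 50 without 3d replicate 1, 82 without 3d replicate 3 and 51 without sham replicate 1.

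The largest rise in expression among circRNAs with separate arrays was in Srebf2, the transcription factor that drives cholesterol synthesis. The log2 expression of mmu_circRNA_28863 was 11.12, 11.37 and 12.36 on the 3d arrays and 8.07, 8.31 and 10.5 on the sham arrays. The groups did not overlap, with sham replicate 3 well above the other sham arrays, and the log2 change was 2.66 ± 0.42 (adjusted P = 0.00697). Its m6A level was 11.2%, 11.2% and 8.54% against 36.7%, 32.0% and 10.9%, so that the lower level was carried by 2 of the sham arrays. The unnamed probe ASCRP4004748 had the next largest rise, with 9.72, 9.91 and 10.89 against 7.91, 8.01 and 8.21 (2.13 ± 0.27, adjusted P = 0.000697). Here the sham arrays lay close together. Its level was 21.5%, 19.4% and 19.3% against 31.7%, 32.3% and 29.4%. The 4 largest decreases were smaller, at -0.74 to -0.87 on the log2 scale, and none of them passed the adjustment (adjusted P between 0.155 and 0.275). All 8 of these circRNAs were called in expression in all 8 settings.

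Changes in level and in expression met mostly in 1 combination. Of the 188 hypomethylated circRNAs, 68 (36.2%) were also up-regulated and 1 was down-regulated, against 2.44% and 0.261% of all tested. By the deposited values, 558 of 2047 (27.3%) were up-regulated and 7 down-regulated, against 21.1% and 0.744%. Of the 53 hypermethylated, 4 were down-regulated and 1 was up-regulated. The 4 include Arhgap32, whose arrays overlapped in expression, and the 1 is Malat1, a call made in 1 of the 8 settings. The expression of the other 48 was not called. Of the 160 hypermethylated in the deposited table, 4 were up-regulated and 12 down-regulated, and Malat1 was in neither group. Expression contains the Sup signal that lowers the level, so the 2 measures are not independent.

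The named circRNAs were also grouped by the known role of their host genes, with 55 names available from all lists of the study. These lists hold circRNAs chosen for their change, and over all tested circRNAs 0.446% were hypermethylated and 1.58% hypomethylated by the scanner values, and 1.35% and 17.3% in the deposited table. Of the 8 tested from genes of the synapse and excitability, 4 were hypermethylated and 2 hypomethylated by the scanner values, with a median log2 change of 0.37, against -0.03 over all tested. The 4 are those of Anks1b, Arhgap32, Rims1 and Calm3, all from the list of hypermethylated circRNAs for 3d vs. sham. The 2 are those of Dtnb, a dystrobrevin, and Scn2a1, a voltage-gated sodium channel. Of the 7 from endocytosis and trafficking, 1 was hypomethylated and the median was -0.08, and of the 4 from cytoskeleton and cilia, 1 was hypomethylated and the median was -0.43. Neither of the 2 from mitochondrial translation and none of the 5 from protein turnover and folding was called. In the deposited table both from mitochondrial translation (median -1.23), 4 of the 7 from endocytosis and trafficking (median -0.93), 3 of the 4 from cytoskeleton and cilia (median -1.24) and 1 of 4 from protein turnover and folding were hypomethylated. All of these but that of Sytl5 are from the list of hypomethylated circRNAs for 3d vs. sham. Trafficking and cytoskeleton also held 1 hypermethylated circRNA each there, those of Appl1 and Clasp1. Of the 7 from synapse and excitability in that table, 4 were hypermethylated and 1 hypomethylated (median 0.96). Of the 3 from nuclear or ribosomal non-coding RNA, 2 were hypermethylated by the scanner values and 3 in the deposited table. Of the 8 from chromatin and transcription, 1 was hypomethylated by the scanner values, that of Srebf2, and the median was -0.03. None of the named circRNAs comes from a gene of the m6A machinery.

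The other 35 named circRNAs are listed for 7d vs. sham or 7d vs. 3d, comparisons that share sham or 3d arrays with this one. Of the 29 that were tested, 5 were hypomethylated and none hypermethylated by the scanner values, against 1.58% and 0.446% of all tested. The deposited values gave 5 hypomethylated and 2 hypermethylated, against 17.3% and 1.35%. Ptchd4 encodes a patched domain protein. Its circRNA had levels of 21.0%, 21.2% and 14.2% against 37.2%, 34.9% and 24.7% (log2 change -0.78 ± 0.18, adjusted P = 0.0302). Slc9a2 encodes a sodium-proton exchanger. Its circRNA had 22.0%, 21.0% and 13.3% against 36.3%, 31.9% and 22.2% (-0.69 ± 0.22, adjusted P = 0.0841). That of Dtnb had 5.46%, 5.29% and 7.91% against 10.7%, 9.55% and 12.1% (-0.81 ± 0.17, adjusted P = 0.0227) by the scanner values, and it was not called in the deposited table, at -0.48 ± 0.23. That of Scn2a1 had 11.7%, 12.5% and 8.93% against 34.1%, 28.0% and 10.3%, so that sham replicate 3 lay among the 3d arrays.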

How the data were processed

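The authors deposited spot intensity values from Agilent Feature Extraction (11.0.1.1), whose headers name the mm9 build. To make their log2 table, the authors subtracted a spike-in constant per channel and array from the processed signals. A mean over 10 of 102 spike-in probes gave this table back within 5.57e-10. Median pixel intensities were corrected by normexp (offset 50, all spots), outlier spots were left out (98 values in 81 probes), and channels were shifted to a common mean over the 10 probes. All 9 arrays were fitted together with limma 3.58.1 in R 4.3.3 (lmFit and eBayes). The script was tested on simulated data and with level shifts injected on the sham arrays. The offset of 50 shrank the median estimate of an injected log2 change of 1 to 0.41, below the fold threshold. The members, lists and rules were chosen with earlier results of these data known. The circRNAs named are the 20 listed for 3d vs. sham, the 6 largest changes of level and the 4 largest of expression in each direction among calls with separate arrays and IP above background in each group, the 4 highest and lowest called with adjusted P below 0.05 in both readings, and up to 4 examples of the other lists. Names were joined where the listed P and fold change matched those of a probe (relative tolerance 0.001 for P, 0.06 for the fold change), which all 60 entries did with 1 probe each. Probes without a name are given by their identifier. The replicate numbers of the titles, which for sham replicate 3 differ from its description, correlated in their deviations from the group means (0.39, 0.21 and 0.45 in the scanner values, 0.34, 0.07 and 0.33 in the deposited table). A block was therefore fitted in both readings. No probe or circRNA sequence was used here.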

Additional observations from a re-analysis of the deposited data

How the results depend on the processing

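The replicate block (54 hypermethylated, 199 hypomethylated, 272 up-regulated and 28 down-regulated circRNAs), the 3 other filters and the fit on the 6 arrays moved these counts by no more than 1.5 times, except that the fit on the 6 arrays gave 134 up-regulated. Hypermethylated circRNAs numbered 142 with all spike-in probes, 218 with within-array loess, 530 with an offset of 0, 269 without background correction, 166 from the processed signals, 160 in the deposited table, 25 by the methods' t-test and 26 after adjustment. Hypomethylated circRNAs numbered 27 with all spike-in probes, 3 with loess, 2012 from the processed signals, 2047 in the deposited table, 64 by the t-test and 81 after adjustment. After adjustment the t-test left 1 in each direction. Up-regulated circRNAs numbered 94 with all spike-in probes, 55 with centering, 105 with quantile normalization, 2474 from the processed signals, 2498 in the deposited table, 73 by the t-test and 18 after adjustment. Down-regulated circRNAs numbered 87, 82, 67, 89, 88, 13 and 1 in the same order, with 68 at an offset of 0 and 47 without background correction. Leaving out each array in turn gave 36 to 159 hypermethylated, 32 to 394 hypomethylated, 177 to 576 up-regulated and 39 to 82 down-regulated circRNAs. The difference in median level reversed with all spike-in probes (2.96 points) and without background correction (1.24). Leave-one-out values were -1.24 to -0.802, and 0.142 to 0.198 for expression. In the deposited table, an alternative group chosen after seeing the data, centering gave 1022 hypermethylated, 165 hypomethylated, 573 up-regulated and 647 down-regulated circRNAs. The t-test gave 76 hypermethylated and 55 down-regulated, and adjustment left 102 hypermethylated, 1618 up-regulated and 51 down-regulated. Leaving out each array gave 101 to 416, 1291 to 3337, 1898 to 3279 and 80 to 227 circRNAs in these 4 directions, -10.4 to -5.95 points for the level and 0.26 to 0.335 for expression. Among named circRNAs, 608 of the recomputed values kept their direction and their side of the threshold, 37 passed it newly, 17 no longer passed it, and that of Klhl32 reversed with all spike-in probes (0.07). The causes were not tested. The IP signal, at 2.23 to 2.43 times the background, limits what dim probes can show.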
